A study of Mus musculus with 35 samples.

Results

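The regulators described here are 7 genes of the program by which cells make mitochondria: Ppargc1a, Ppargc1b and Pprc1, the 3 members of the PGC-1 family of coactivators, and Esrra, Nrf1, Gabpa and Tfam, nuclear-encoded transcription factors of the same program. They were taken by symbol, with no threshold on a measured value, from a list drawn up with earlier results of these data known, and joined by Ensembl identifier to the count of every library, so that they are 7 of 31053 genes counted. The libraries are 35 QuantSeq 3′ mRNA libraries of whole mouse kidney at postnatal day 2 (C57BL/6), and each read in them comes from the 3′ end of a polyadenylated transcript. Folliculin, the product of Flcn, restrains the transcription factors TFEB and TFE3, and the comparisons ask what the loss of Flcn, alone or with that of 1 of these factors, did to kidney transcripts.

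The Flcn KO mice were Flcn flox/flox; Ksp-cre+ (5 libraries, with 5 controls of the Flcn cross). The Flcn/Tfeb DKO mice carried floxed alleles of both Flcn (Flcn flox/flox) and Tfeb (Tfeb flox/flox) with Ksp-cre+ (4 libraries, with 3 controls of their own cross). The Flcn/Tfe3 DKO mice were Flcn flox/flox; Ksp-cre+; Tfe3-/- (10 libraries, with 8 controls of their own cross). Ksp-cre is driven by the cadherin 16 promoter and acts in collecting ducts, distal tubules and the thick ascending limb, so that Flcn and Tfeb were deleted in part of the kidney's cells, whereas Tfe3 was absent from every cell. The labels name the control groups only by their cross. Elsewhere in the study control mice were Flcn flox/flox, and the alleles of the control libraries of each cross are not given in the sources used here. The libraries of the Flcn/Tfe3 cross were deposited in 2 tables that share no library, here named set B (6 DKO and 3 control libraries) and set C (4 DKO and 5 control libraries).

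The members lie on 6 chromosomes of mm10. Ppargc1a is at chr5:51454250-51567726 on the minus strand, Ppargc1b at chr18:61298136-61400431 (minus), Pprc1 at chr19:46044886-46072915 (plus), Esrra at chr19:6910977-6921813 (minus), Tfam at chr10:71225464-71238280 (minus), Nrf1 at chr6:30047988-30153458 (plus) and Gabpa at chr16:84834925-84863779 (plus). Gabpa overlaps Atp5j, Pprc1 overlaps Ldb1 and Esrra overlaps Trmt112, each on the other strand, Prdx5 lies close to the 3′ end of Esrra on the same strand, and Ppargc1a and Ppargc1b overlap predicted genes and the microRNA gene Mir378a, respectively, so that these counts are uncertain as far as reads of such neighbors were counted with them.

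PGC-1α, PGC-1β and PRC, encoded by Ppargc1a, Ppargc1b and Pprc1, bind no DNA themselves but are recruited by transcription factors to the promoters of genes for respiratory chain subunits and other mitochondrial proteins. Among those factors are the estrogen-related receptors, of which ERRα is encoded by Esrra and ERRγ by Esrrg, the nuclear respiratory factor NRF1, and GABPα, the DNA-binding subunit of GA-binding protein, which is also called NRF-2. These factors also act on Tfam, whose product packages mitochondrial DNA and starts its transcription, and PGC-1α is known for high levels in tissues rich in mitochondria, such as the tubules of the kidney.

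A pair of stretches before transcription starts is shown, that of Ppargc1a because it was the only member called in any cross, and that of Tfam because it is the classic target of GABP. RefSeq promoter windows (GRCm38.p6, the assembly called mm10) were found for 6 of the 7 members, with 2 windows for Nrf1. The 250 bases before each start were searched on both strands for CACGTG, the E-box that TFEB and TFE3 bind, for TCATGTG, its variant known as the M-box, for TGACG, the half-site of the cAMP response element through which CREB acts on Ppargc1a, for AAGGTCA, the half-site of the ERRs, and for CCGGAAG, a site of GABP. The starts of Tfam, Gabpa, Pprc1 and Esrra and the second start of Nrf1 in RefSeq, and by 1 base that of Ppargc1a, lie inside the gene as GENCODE M21 draws it (the coordinates above), so that most of the Tfam window, CCGGAAG included, is within that gene model. In the lines below (5′ to 3′ on the gene's strand, ending at the base before the start) capitals mark the matches to TCATGTG and TGACG in Ppargc1a and to CCGGAAG in Tfam, which lie on either strand.
Ppargc1a, chr5:51567726-51567975, minus strand: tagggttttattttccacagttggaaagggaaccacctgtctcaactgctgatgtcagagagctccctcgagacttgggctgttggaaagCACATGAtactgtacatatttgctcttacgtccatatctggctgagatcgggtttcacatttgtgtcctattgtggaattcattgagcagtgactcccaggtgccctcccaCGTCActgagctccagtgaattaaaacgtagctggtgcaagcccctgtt
Tfam, chr10:71238045-71238294, minus strand: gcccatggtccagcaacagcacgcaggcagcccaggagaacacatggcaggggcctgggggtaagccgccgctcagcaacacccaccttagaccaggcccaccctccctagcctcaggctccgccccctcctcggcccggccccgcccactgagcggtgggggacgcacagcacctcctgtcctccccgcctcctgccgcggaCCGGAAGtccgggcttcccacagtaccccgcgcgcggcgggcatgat

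In Ppargc1a the M-box letters begin 160 bases and the half-site of the cAMP response element 49 bases before the start. The letters TCATGTG were in 3.25% and TGACG in 17.8% of all 32851 windows. CCGGAAG began 47 bases before the start of Tfam and 93 bases before that of Gabpa, and 6.91% of all windows held it. The E-box CACGTG (6.02% of all windows) and the ERR half-site AAGGTCA (4.08%) were found in none of the members' windows. These matches are a description of the letters and not of binding. Bases outside the 250 before each start were not searched, whereas the paper searched a longer stretch on both sides of the start for motifs of TFEB. An absence here is therefore no absence from the gene.

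Each library held 1652649 to 4239356 reads assigned to a gene (median 2992169), and levels are given in CPM, counts scaled to a common library total. The limit that a count of 0 allows is 3 counts, or 0.708 to 1.82 CPM. All 7 members were above this floor in every library and passed the filter on low counts in each cross. The precision differed between them, since Ppargc1a had 96 to 609 counts per library (median 295) and Tfam 70 to 277 (median 171), but Pprc1 only 13 to 67 (median 28). The counting error alone was 6.61% of the level for Ppargc1a, 8.31% for Tfam, 11.5% for Nrf1, 13.4% for Ppargc1b, 15.8% for Gabpa, 16% for Esrra and 19.3% for Pprc1. Within groups and sets the observed coefficient of variation was larger for each of them, from 14.3% (Tfam) and 15.2% (Ppargc1a) to 28.3% (Pprc1). Proximal tubule genes such as Slc34a1 (474 to 1109 CPM), the sodium-phosphate cotransporter, were present in every library, as was Cdh16 (196 to 366 CPM), whose promoter drives the Cre. Flcn (6.35 to 18.9 CPM), Tfeb (3.53 to 24.9 CPM) and Tfe3 (12.5 to 43.3 CPM) were counted in libraries of every genotype, and since 3′ reads need not lie in the deleted exons, these counts do not check the labels. Tfe3 was at 18.6 ± 3.81 CPM (SD, n = 10) in Flcn/Tfe3 DKO libraries and 19.3 ± 3.12 CPM (SD, n = 8) in the controls of that cross, against 32.1 ± 5.20 CPM (SD, n = 5) in Flcn controls and 36.6 ± 6.83 CPM (SD, n = 3) in Flcn/Tfeb controls, where cross and deposited table cannot be told apart.

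Some libraries stood apart from others of their group in their mitochondrial share. The share of counts on transcripts of the mitochondrial genome was 4.88% to 11.1% in controls of the Flcn cross, and it was under 5% in replicates 4 and 5 only. It was 4.47% in replicate 3 of the Flcn/Tfeb controls, against 9.16% to 10.7% in the other controls and 10.4% to 11.9% in Flcn/Tfeb DKO libraries. It was 1.79% to 3.56% in set B, 3.01% to 7.80% in set C controls and 2.72% to 4.27% in set C DKO libraries. The share of reads on no gene followed it, with 9.06% to 18% in Flcn controls, 9.07% to 19.9% in Flcn/Tfeb controls, and 8.78% to 18.4% against 7.92% to 10.5% in controls and DKO libraries of set C (set B has no such tally). Xist, the transcript of the inactive X chromosome in female cells, was above 3 counts in 6 of 8 Flcn/Tfe3 controls and in 3 of 10 Flcn/Tfe3 DKO libraries.

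Ppargc1a was higher in Flcn KO kidneys than in every control of the cross, by 1.27-fold, but the change was not called over all genes tested. In controls of the Flcn cross it was at 85.4, 84.7, 101, 99.7 and 103 CPM, and in Flcn KO libraries at 119, 107, 132, 130.1 and 117 CPM. The lowest Flcn KO library was therefore above the highest control. The mean was 94.7 ± 8.86 CPM (SD, n = 5) in controls and 121 ± 10.2 CPM (SD, n = 5) in Flcn KO libraries, and the log2 fold change was 0.35 (SE 0.11, unadjusted p = 0.0044, adjusted p = 0.26, edgeR quasi-likelihood test over 11932 genes). Of all genes tested in this cross, 1.69% likewise had every Flcn KO library above every control. With both low-share controls left out the log2 fold change was 0.42 (adjusted p = 0.19).

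In Flcn/Tfeb DKO kidneys Ppargc1a was not higher than in their controls. The controls were at 57.4, 56.2 and 83.0 CPM, and the Flcn/Tfeb DKO libraries at 56.5, 65.0, 64.1 and 62.3 CPM. The DKO libraries all lay within the range of the controls, whose highest value was replicate 3, the one with the low mitochondrial share. The means were 65.5 ± 15.1 CPM (SD, n = 3) and 62.0 ± 3.80 CPM (SD, n = 4), and the log2 fold change was -0.10 (SE 0.19, adjusted p = 0.89, edgeR). Without control replicate 3 the log2 fold change was 0.12, so that 1 library set its sign.

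In Flcn/Tfe3 DKO kidneys Ppargc1a rose 1.55-fold, the only change among the 7 members that was called, and most of it lay in set C. In set B the controls were at 72.3, 77.7 and 78.8 CPM, and the DKO libraries had 72.1 CPM as the lowest value, 93.2 CPM as the median and 124 CPM as the highest. In set C the controls were at 67.1, 79.4, 118, 77.7 and 89.1 CPM, and the DKO libraries at 163, 163, 149 and 155 CPM. Control and DKO libraries overlapped in set B, where 1 of the 6 DKO libraries was below all 3 controls, and were separate in set C, where control replicate 6 was nearest to the DKO libraries. The means were 76.3 ± 3.49 CPM (SD, n = 3) and 97.3 ± 20.8 CPM (SD, n = 6) in set B, and 86.3 ± 19.4 CPM (SD, n = 5) and 157 ± 6.75 CPM (SD, n = 4) in set C. Over both sets the log2 fold change was 0.63 (SE 0.13, unadjusted p = 4.4e-05, adjusted p = 0.017, edgeR quasi-likelihood test with the set as a term). The call was 1 of 7 members, in a comparison where 0.385% of 12456 genes were called.

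Taken apart, set C had the call and set B had not, but the difference between the sets was not called. In set B alone the log2 fold change was 0.36 (adjusted p = 0.75, edgeR), where 0.0606% of 13191 genes were called, and in set C alone it was 0.85 (adjusted p = 0.0078, edgeR), where 4.68% of 12169 genes were called. In set C 3.36% of genes had every DKO library above every control. The effect in set C less that in set B was 0.53 on the log2 scale (SE 0.23, unadjusted p = 0.028, adjusted p = 0.17, edgeR), in a test that called 1.30% of genes, 23 of them higher and 139 lower. Control replicate 6, with the highest Ppargc1a of the set C controls, also had the lowest mitochondrial share of them (3.01%) and the lowest share of reads on no gene (8.78%), close to the DKO libraries. With the mitochondrial share as a covariate the change over both sets was 0.57 and the call was lost (adjusted p = 0.10, edgeR), and in set C with the share of reads on no gene as a covariate it was 0.65 (adjusted p = 0.33, edgeR). The mitochondrial share is made of transcripts whose transcription the product of Tfam, a member, starts. As a covariate it therefore cannot tell a property of the library from a change in those transcripts. The call was also lost without control replicate 7 (adjusted p = 0.053), DKO replicate 7 (0.051) or DKO replicate 8 (0.054), all of set C, with log2 fold changes of 0.59 to 0.60. With Xist as a covariate it was 0.59 and not called either (adjusted p = 0.096, edgeR), and the part of sex in the change was not tested further.

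**Figure D1:**
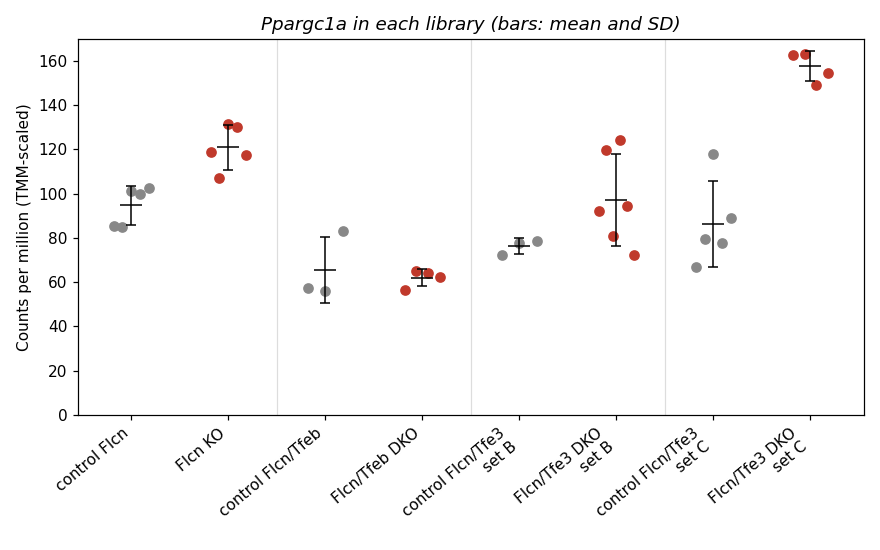
Ppargc1a in CPM (vertical axis, from 0) in each of the 35 libraries by group and set, with controls in grey, Flcn KO and DKO libraries in red, and black bars for mean and SD. The 4 DKO libraries of set C (149 to 163 CPM) lie above every other library, the 5 Flcn KO libraries (107 to 132 CPM) lie above their controls, and the Flcn/Tfeb DKO libraries (56.5 to 65.0 CPM) lie within the range of theirs.

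Ranked by mean, Ppargc1a was highest in the set C DKO libraries (157 CPM), followed by Flcn KO (121 CPM), set B DKO (97.3 CPM), Flcn controls (94.7 CPM), set C controls (86.3 CPM), set B controls (76.3 CPM), Flcn/Tfeb controls (65.5 CPM) and Flcn/Tfeb DKO (62.0 CPM). The first 2 groups in this order did not overlap, whereas the ranges of all other neighbors did. The controls of the 3 crosses thus spanned 56.2 to 118 CPM, and so no effect was taken against the controls of another cross.

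The difference between the crosses was tested for each member as an interaction. For Ppargc1a the Flcn/Tfeb DKO effect less the Flcn KO effect was -0.46 on the log2 scale (SE 0.19, unadjusted p = 0.027, adjusted p = 0.82, edgeR), and without Flcn/Tfeb control replicate 3 it was -0.22. The Flcn/Tfe3 DKO effect less the Flcn KO effect was 0.28 (SE 0.19, unadjusted p = 0.14, adjusted p = 0.71, edgeR). The Flcn/Tfe3 DKO effect less the Flcn/Tfeb DKO effect was 0.72 (SE 0.24, unadjusted p = 0.0055, adjusted p = 0.30, edgeR), and with the mitochondrial share as a covariate it was 0.38. None of the 7 members was called in these 3 tests, by edgeR or by DESeq2, and edgeR called 0.0153%, 0% and 0.0220% of all genes, and this does not show that the effects were alike. At an unadjusted p under 0.05 there were 2, 0 and 1 members, against 5.95%, 7.40% and 12.2% of all genes.

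Ppargc1b, the paralog with a similar set of partners, was not called in any cross. It was at 22.6 to 28.2 CPM in Flcn controls and 17.6 to 36.5 CPM in Flcn KO libraries, with a log2 fold change of 0.06 (SE 0.18). In the Flcn/Tfeb cross it was at 28.7, 24.6 and 17.3 CPM in controls and 26.7, 31.2, 27.5 and 38.3 CPM in DKO libraries, and the log2 fold change was 0.40 (SE 0.24, adjusted p = 0.80, edgeR), or 0.21 without control replicate 3 and 0.055 with the mitochondrial share as a covariate. In the Flcn/Tfe3 cross it was 0.33 (SE 0.18, unadjusted p = 0.069, adjusted p = 0.73, edgeR). In set C the DKO libraries (23.8 to 27.6 CPM) were all above the controls (12.95 to 23.3 CPM), though the gap was small, and in set B the DKO libraries (8.30 to 23.5 CPM) spanned the controls (11.7 to 15.2 CPM). The effect in set C less that in set B was 0.37 (SE 0.35, adjusted p = 0.55, edgeR). Ppargc1a and Ppargc1b were the 2 members above all controls in set C, where 3.36% of all genes were.

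Pprc1, the third coactivator and one known to respond to serum, had a direction in the Flcn/Tfe3 cross that turned with the set. In set B the controls were at 16.04, 12.4 and 8.82 CPM and all 6 DKO libraries below them, at 5.35 to 8.02 CPM (median 7.73 CPM), as was the case for 1.28% of genes. In set C the controls were at 5.70, 13.2, 7.06, 5.33 and 8.25 CPM and the DKO libraries at 8.74, 12.3, 7.31 and 17.8 CPM. The log2 fold change was -0.74 in set B alone (adjusted p = 0.75, edgeR) and 0.57 in set C alone (adjusted p = 0.33, edgeR). The effect in set C less that in set B was 1.36 (SE 0.42, unadjusted p = 0.0033, adjusted p = 0.078, edgeR), and over both sets the change was -0.09 (SE 0.24). It was 0.21 (SE 0.25, or 0.032 without Flcn KO replicate 2) in Flcn KO and 0.30 (SE 0.29) in Flcn/Tfeb DKO (0.094 without control replicate 3), neither called. These values rest on 13 to 67 counts per library.

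Esrra was at 8.65 to 13.1 CPM in Flcn controls and 9.59 to 15.9 CPM in Flcn KO libraries, and its log2 fold change of 0.22 (SE 0.21) was not called. It was 0.14 without control replicate 2 and 0.40 without both controls with a low mitochondrial share. In the Flcn/Tfeb cross the controls were at 18.7, 11.1 and 22.2 CPM and the DKO libraries at 9.56, 14.3, 13.4 and 14.99 CPM, with a log2 fold change of -0.45 (SE 0.30, adjusted p = 0.80, edgeR) and overlapping groups. Without control replicate 3 it was -0.21, and with the mitochondrial share as a covariate -0.076. In the Flcn/Tfe3 cross it was 0.16 (SE 0.16), or 0.36 when only set B was fitted and -0.064 for only set C. The Flcn/Tfeb DKO effect less the Flcn KO effect was -0.67 (SE 0.34, unadjusted p = 0.062, adjusted p = 0.84, edgeR), or -0.42 without Flcn/Tfeb control replicate 3 and -0.41 with the mitochondrial share as a covariate.

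Tfam was lower in every Flcn/Tfeb DKO library than in any control of that cross, but the change was not called. The controls were at 66.2, 58.5 and 49.3 CPM and the DKO libraries at 45.0, 45.5, 46.2 and 47.3 CPM, which was a log2 fold change of -0.34 (SE 0.17, unadjusted p = 0.070, adjusted p = 0.80, edgeR). Without control replicate 3 it was -0.44, and without control replicate 1 it was -0.23. In this cross 2.75% of genes had every DKO library below every control. The change was 0.13 (SE 0.13, or 0.038 without Flcn KO replicate 2) in Flcn KO and -0.05 (SE 0.12) in Flcn/Tfe3 DKO. The Flcn/Tfeb DKO effect less the Flcn KO effect was -0.47 (SE 0.21, unadjusted p = 0.034, adjusted p = 0.82, edgeR). The level itself was higher in set C (58.4 to 101 CPM) than in most other libraries (37.8 to 66.8 CPM), which is a difference between tables and not a test of genotype.

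Nrf1 and Gabpa were not called in any cross. Nrf1 was at 20.1 to 41.2 CPM over all libraries, with log2 fold changes of 0.16 (SE 0.14) in Flcn KO, 0.13 (SE 0.25, or -0.0016 without DKO replicate 3) in Flcn/Tfeb DKO and -0.05 (SE 0.13) in Flcn/Tfe3 DKO. Gabpa was at 8.20 to 32.2 CPM, with log2 fold changes of -0.14 (SE 0.19), -0.02 (SE 0.35, or 0.53 without Flcn/Tfeb control replicate 3) and 0.18 (SE 0.15). The Flcn KO value of Gabpa was -0.049 without control replicate 5, -0.057 and -0.24 without Flcn KO replicates 5 and 2, and -0.0048 without both controls with a low mitochondrial share, and its Flcn/Tfe3 DKO value was 0.012 when set B was fitted alone and 0.29 for set C alone. By edgeR with all libraries no member but Ppargc1a had an unadjusted p under 0.05 in any of the 3 crosses. Over the 7 members 6 had a log2 fold change above 0 in Flcn KO (median 0.16), 3 in Flcn/Tfeb DKO (median -0.02) and 4 in Flcn/Tfe3 DKO (median 0.16), and the medians of all genes tested were -0.01, -0.02 and 0.01. None was called in Flcn KO or Flcn/Tfeb DKO, by edgeR or DESeq2, in comparisons where 0.520% and 0% of all genes were called and 1082 and 632 genes were at an unadjusted p under 0.05.

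**Figure D2:**
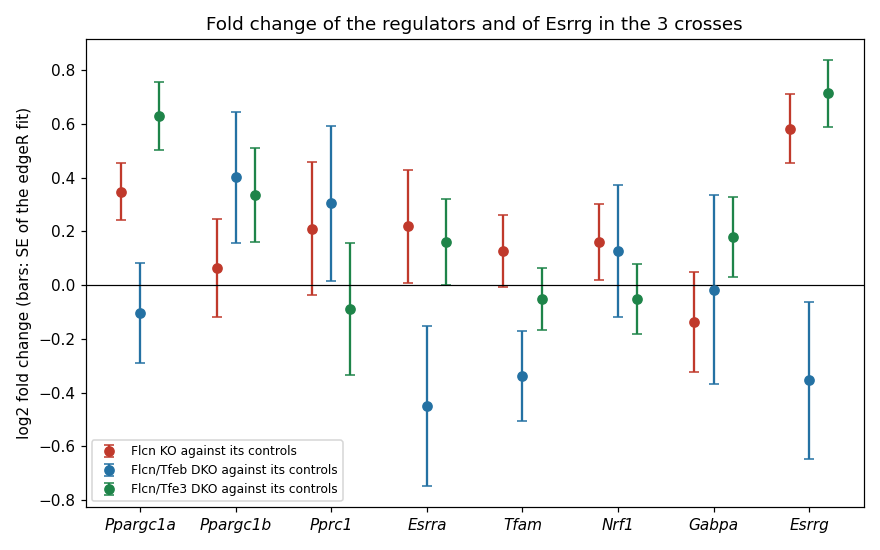
Log2 fold change (vertical axis) of the 7 regulators and of Esrrg against the controls of the same cross, with the standard error of the edgeR fit as bars, for Flcn KO (red), Flcn/Tfeb DKO (blue) and Flcn/Tfe3 DKO (green). Ppargc1a and Esrrg are above 0 by more than 2 standard errors in Flcn KO and Flcn/Tfe3 DKO, and the other members are within or near 2 standard errors of 0.

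**Figure D3:**
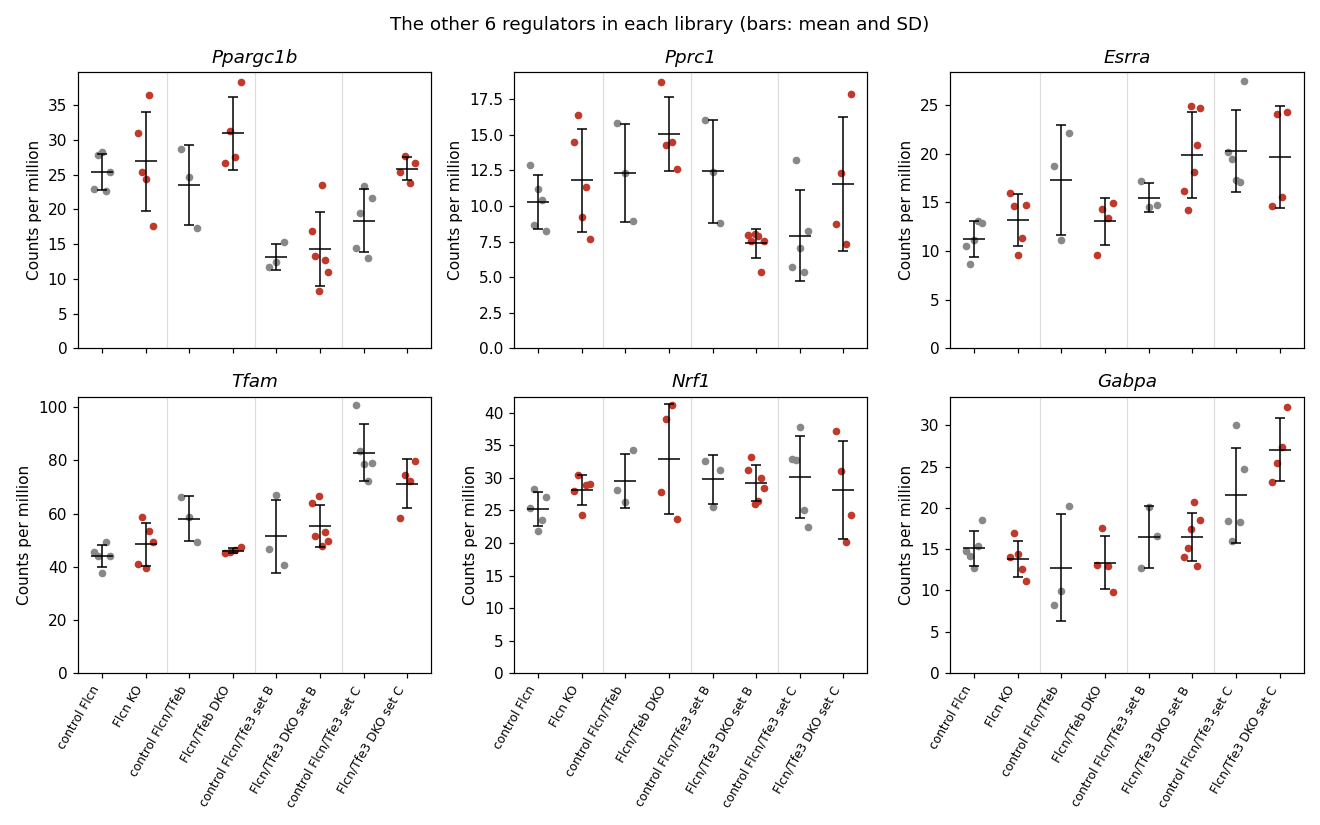
CPM (vertical axes, from 0) of the other 6 regulators in each library by group and set, with controls in grey, Flcn KO and DKO libraries in red, and black bars for mean and SD. Groups overlap in most panels, except for Ppargc1b in set C, Pprc1 in set B and Tfam in the Flcn/Tfeb cross.

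Among 32 listed partners and modifiers of the coactivators and NRFs, Esrrg was the 1 gene called. Its product ERRγ is an orphan receptor that PGC-1α coactivates. In Flcn/Tfe3 DKO kidneys Esrrg rose by 0.71 on the log2 scale (SE 0.12, adjusted p = 0.0039, edgeR). In set B the controls were at 17.96, 21.1 and 25.4 CPM and the DKO libraries at 24.9 to 39.7 CPM (median 28.6 CPM), and in set C the controls were at 26.3, 25.1, 29.3, 27.8 and 21.6 CPM and the DKO libraries at 46.5, 55.8, 42.7 and 48.5 CPM. The groups overlapped narrowly in set B and were separate in set C, and with the mitochondrial share as a covariate the change was 0.70 and still called (adjusted p = 0.019, edgeR). In set B alone it was 0.50 (adjusted p = 0.75, edgeR) and in set C alone 0.87 (adjusted p = 0.0078, edgeR). The call was kept in 29 of 34 alternatives, and among those that lost it were set B alone, set B with the mitochondrial share (adjusted p = 0.71) and set C with the mitochondrial share (0.087) or the share of reads on no gene (0.31, edgeR). The effect in set C less that in set B was 0.41 (SE 0.24, adjusted p = 0.31, edgeR).

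In the Flcn cross Esrrg was at 23.4, 31.9, 29.8, 29.3 and 28.5 CPM in controls and at 44.0, 45.4, 43.9, 36.5 and 43.5 CPM in Flcn KO libraries, without overlap. The log2 fold change of 0.58 (SE 0.13, adjusted p = 0.051, edgeR) missed the threshold. It was called in 6 of 23 alternatives, among them DESeq2 (adjusted p = 0.018), the likelihood ratio test (0.0061) and fits with the mitochondrial share (0.02) or the share of reads on no gene (0.015) as a covariate, whereas every fit with 1 library left out (adjusted p 0.059 to 0.16), the fit without both low-share controls (0.59, adjusted p = 0.13) and that with the adipocyte markers as a covariate (adjusted p = 0.17) did not. In Flcn/Tfeb DKO Esrrg was at 25.5, 14.9, 13.4 and 24.5 CPM against 30.4, 18.7 and 25.6 CPM in controls, with a log2 fold change of -0.35 (SE 0.29, adjusted p = 0.80, edgeR), which was -0.20 without control replicate 1 or DKO replicate 3 and -0.14 with the mitochondrial share as a covariate. The Flcn/Tfeb DKO effect less the Flcn KO effect was -0.93 (SE 0.28, unadjusted p = 0.0030, adjusted p = 0.64, edgeR), the Flcn/Tfe3 DKO effect less the Flcn KO effect 0.13 (SE 0.18, adjusted p = 0.86, edgeR), and the Flcn/Tfe3 DKO effect less the Flcn/Tfeb DKO effect 1.05 (SE 0.27, unadjusted p = 0.00062, adjusted p = 0.26, edgeR). No difference between crosses passed the threshold, except that the last of these was 1.2 (adjusted p = 0.05, just called, edgeR) without Flcn/Tfeb control replicate 2.

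Of the other partners, Lpin1, a phosphatidate phosphatase that also binds PGC-1α, had a log2 fold change of -0.75 (SE 0.19, adjusted p = 0.12, edgeR) in Flcn KO, 0.52 in Flcn/Tfeb DKO and -0.13 in Flcn/Tfe3 DKO. Ncoa1, a coactivator of nuclear receptors, was at 0.39 (SE 0.14, adjusted p = 0.42, edgeR) in Flcn/Tfe3 DKO. Prmt1, an arginine methyltransferase, was at -0.63 (SE 0.21, adjusted p = 0.80, edgeR) and Crtc1, a coactivator of CREB, at 0.48 (SE 0.29) in Flcn/Tfeb DKO. Of the partners tested, 12 of 29 were above 0 in Flcn KO (median -0.05), 11 of 29 in Flcn/Tfeb DKO (median -0.12) and 21 of 30 in Flcn/Tfe3 DKO (median 0.07). At an unadjusted p under 0.05, 3 of 29 were higher in Flcn KO and 3 of 30 in Flcn/Tfe3 DKO, against 5.25% and 3.67% of all genes, and 2 were lower in Flcn KO and 1 in Flcn/Tfeb DKO, against 3.81% and 3.21%.

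None of 22 listed genes for the transcription, replication and packaging of mitochondrial DNA was called by edgeR. Of those tested, 10 of 17 were above 0 in Flcn KO (median 0.08), 12 of 19 in Flcn/Tfeb DKO (median 0.05) and 9 of 19 in Flcn/Tfe3 DKO (median -0.07). The smallest p values belonged in Flcn KO to Lig3, a DNA ligase of mitochondria and nucleus (-0.30, SE 0.15, adjusted p = 0.57, edgeR), and Fastkd2 (0.28, SE 0.17), in Flcn/Tfeb DKO to Twnk, the helicase of mitochondrial DNA (-1.03, SE 0.42, adjusted p = 0.80, edgeR), and Mterf4 (0.56, SE 0.28), and in Flcn/Tfe3 DKO to Polg2, the accessory subunit of the mitochondrial DNA polymerase (0.60, SE 0.25, adjusted p = 0.56, edgeR), and Lonp1, a protease of the mitochondrial matrix (0.23, SE 0.12). At an unadjusted p under 0.05 this list had 0 genes in Flcn KO, 1 lower in Flcn/Tfeb DKO (3.21% of all genes) and 1 higher in Flcn/Tfe3 DKO (3.67% of all genes).

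Of 32 textbook targets of PGC-1, the ERRs and the NRFs, Cycs was the 1 gene called. It encodes cytochrome c, the electron carrier between complexes III and IV. Cycs was at 70.6, 54.2, 66.0, 48.4 and 50 CPM in Flcn controls and at 80.7, 96.6, 90.0, 104 and 79.7 CPM in Flcn KO libraries, without overlap. It rose by 0.65 on the log2 scale (SE 0.13, adjusted p = 0.028, edgeR), and the call was kept in 14 of 23 alternatives, among them the mitochondrial share (0.61, adjusted p = 0.0032) and the share of reads on no gene (0.60, adjusted p = 0.0036, edgeR) as a covariate. The 2 controls with a low mitochondrial share were the lowest, and without both the value was 0.50 (adjusted p = 0.13, edgeR). The call was also lost when single libraries were left out (control replicates 2, 4 and 5 and Flcn KO replicates 2, 3 and 4, adjusted p 0.063 to 0.098). In 1 fit of all 35 libraries the value was 0.65 and not called (adjusted p = 0.15, edgeR). In Flcn/Tfeb DKO it was 0.19 (SE 0.25), and in Flcn/Tfe3 DKO it was -0.02 (SE 0.14). In set B the mean was 63.9 ± 10.7 CPM (SD, n = 6) in DKO libraries and 51.2 ± 9.75 CPM (SD, n = 3) in controls, and in set C it was 58.9 ± 5.74 CPM (SD, n = 4) and 75.4 ± 18.7 CPM (SD, n = 5), with a set C effect less set B effect of -0.65 (SE 0.25, unadjusted p = 0.014, adjusted p = 0.13, edgeR), which was not called. The Flcn/Tfe3 DKO effect on Cycs less the Flcn KO effect was -0.66 (SE 0.22, unadjusted p = 0.0043, adjusted p = 0.66), the Flcn/Tfeb DKO effect less the Flcn KO effect -0.45 (SE 0.27, adjusted p = 0.86) and the Flcn/Tfe3 DKO effect less the Flcn/Tfeb DKO effect -0.23 (SE 0.29, adjusted p = 0.76, edgeR), so that no difference between crosses was called.

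Of the targets tested, 22 of 30 were above 0 in Flcn KO (median 0.12), 11 of 30 in Flcn/Tfeb DKO (median -0.11) and 20 of 31 in Flcn/Tfe3 DKO (median 0.08), whereas of all genes 48.5%, 47.9% and 51.9% were. At an unadjusted p under 0.05, 8 of 30 targets were higher in Flcn KO and 7 of 31 in Flcn/Tfe3 DKO, and in Flcn/Tfeb DKO 1 was lower, against 5.25%, 3.67% and 3.21% of all genes. Cox5b, a subunit of cytochrome c oxidase, was at 0.41 (SE 0.11, adjusted p = 0.15, edgeR) in Flcn KO and 0.09 (SE 0.12) in Flcn/Tfe3 DKO. Idh3a, a subunit of a citric acid cycle enzyme, was at 0.31 (SE 0.08, adjusted p = 0.13, edgeR) in Flcn/Tfe3 DKO and at 0.24 (SE 0.12) in Flcn KO. In Flcn/Tfeb DKO the smallest p values were those of Timm50, of the protein import machinery (-0.64, SE 0.22, adjusted p = 0.80, edgeR), and Uqcrc1, of complex III (-0.51, SE 0.25). Changes of these lists were not tested as lists.

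Some cell type markers also differed between Flcn KO or DKO libraries and controls, but not in step with Ppargc1a in every cross and library. In whole kidney a higher level cannot be told apart from more cells of a type or more RNA per cell. The summed level of 7 markers of intercalated cells, the acid-base cells of the collecting duct, was 148 to 229 CPM in Flcn controls and 400 to 556 CPM in Flcn KO, 194 to 236 CPM and 270 to 284 CPM in the Flcn/Tfeb cross, 163 to 207 CPM and 291 to 448 CPM in set B, and 174 to 263 CPM and 282 to 393 CPM in set C. In the Flcn/Tfeb cross the DKO sums were thus above all controls, although Ppargc1a was not higher. The highest sum of set B (448 CPM) was in DKO replicate 6, which had the lowest Ppargc1a of that set (72.1 CPM). Of the 7 intercalated cell markers 3 were called in Flcn KO (0.520% of all genes were called), namely Aqp6 (2.06), Atp6v0d2 (1.02) and Atp6v1g3 (1.31 on the log2 scale). In Flcn/Tfe3 DKO 2 of 7 were called (0.385% of all genes), namely Aqp6 (1.81) and Atp6v0d2 (1.13). In Flcn/Tfeb DKO none of 6 tested was called, in a fit that called 0% of all genes. Above 0 were 6 of 7 in Flcn KO and 7 of 7 in Flcn/Tfe3 DKO. At an unadjusted p under 0.05, 5 and 4 of them were higher, against 5.25% and 3.67% of all genes. No marker of this list was at 0 in any library. Much of the sum was Atp6v1g3, at 76.8 to 143 CPM in Flcn controls and 237.5 to 327 CPM in Flcn KO. It was at 80.7 to 178 CPM in Flcn/Tfeb controls and 182 to 195 CPM in Flcn/Tfeb DKO. Atp6v1g3 and Atp6v0d2 encode subunits of the vacuolar proton pump, and the paper counts other subunits of this pump among TFEB/TFE3 target genes. Whether their levels followed the number of intercalated cells was not tested. In Flcn/Tfeb DKO 4 of the 6 tested markers were above 0. Foxi1 was at -1.01 (SE 0.55) and Aqp6 at 0.61 (SE 0.30), neither called. Every Flcn/Tfeb DKO library had more Aqp6 (26.0 to 29.2 CPM) than any control of the cross (8.78 to 23.9 CPM). This was so for 362 of 12469 genes. Of 6 markers of the thick ascending limb only Umod was called, higher by 1.001 in Flcn KO and 0.71 in Flcn/Tfe3 DKO on the log2 scale. Of the 6, 5 were above 0 in Flcn KO, 3 in Flcn/Tfeb DKO and 2 in Flcn/Tfe3 DKO. Of the lists for proximal tubule, distal convoluted tubule, principal cell, podocyte, nephron progenitor, endothelium, stroma and myeloid cells, the 1 gene called was Scnn1b, a sodium channel subunit of principal cells, which rose by 0.58 in Flcn KO (adjusted p = 0.049, edgeR). The 7 principal cell markers went both ways. At an unadjusted p under 0.05, 2 were higher and 1 lower in Flcn KO, and 3 higher and 2 lower in Flcn/Tfe3 DKO. In Flcn/Tfeb DKO 2 were lower and 0 higher. Aqp2, the water channel of these cells, was at -0.48 in Flcn KO and -0.40 in Flcn/Tfe3 DKO on the log2 scale. Of 13 proximal tubule markers 1 was above 0 in Flcn KO (median -0.22, with 4 lower at an unadjusted p under 0.05), 1 in Flcn/Tfeb DKO (median -0.20) and 3 in Flcn/Tfe3 DKO (median -0.15). Of 4 nephron progenitor markers tested in Flcn KO 3 were lower at an unadjusted p under 0.05 (median -0.61). The summed podocyte markers were at 375 to 462.5 CPM in Flcn KO and 478 to 546 CPM in Flcn controls. Those of the distal convoluted tubule were at 557 to 677 CPM and 692 to 771 CPM. In Flcn KO 0 of 6 podocyte and 1 of 5 distal convoluted tubule markers were above 0. In Flcn/Tfeb DKO 1 of 6 and 3 of 5 were, and in Flcn/Tfe3 DKO 4 of 6 and 0 of 4. Of 6 adrenal markers none passed the filter in the Flcn cross, where the highest, Star, reached 2.51 CPM, or in the Flcn/Tfe3 cross, where single libraries were high (Cyp21a1 up to 79.7 CPM in set B controls and 71.8 CPM in set B DKO libraries), and 2 of 3 tested in Flcn/Tfeb DKO were above 0 (median 0.40, none called). In the Flcn/Tfe3 cross their sum was 0.305 to 1.88 CPM in set C DKO libraries and 0 to 147 CPM in set C controls, and 0 to 184 CPM and 0.534 to 181.5 CPM in set B, with Cyp11b2, which makes aldosterone, at 0 in all 35 libraries. The part of these cells in the Ppargc1a and Esrrg values was not tested.

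**Figure D4:**
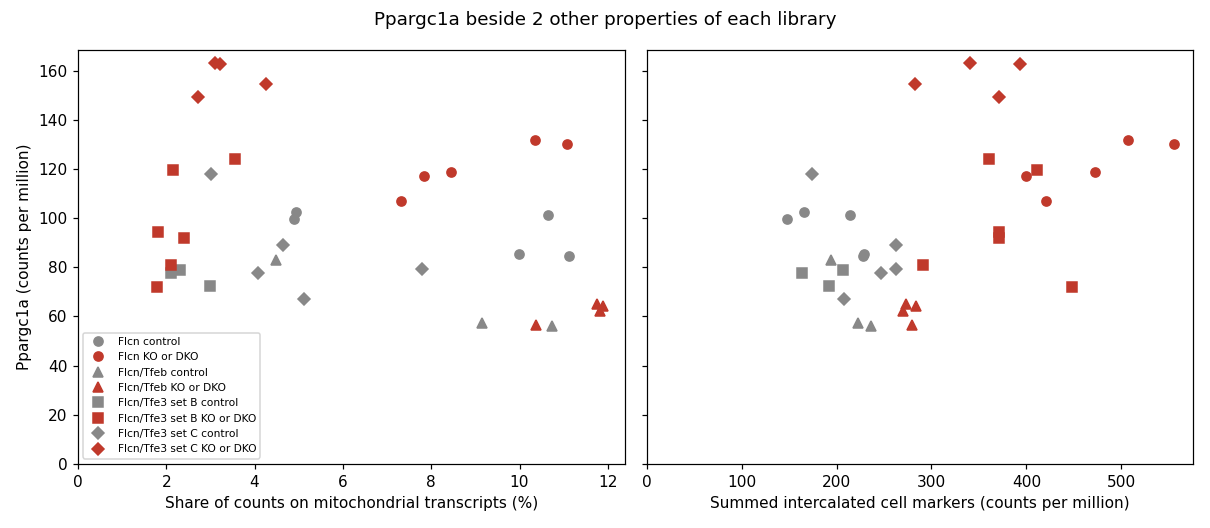
Ppargc1a (vertical axes, CPM) in each library against the percentage of counts on mitochondrial transcripts (left) and the summed level of 7 intercalated cell markers (right), with controls in grey, Flcn KO and DKO libraries in red and a symbol for each cross and set. Set C DKO libraries have the highest Ppargc1a at a mitochondrial share of 2.72% to 4.27%, and marker sums are higher in Flcn KO and DKO libraries than in all controls of the same cross and set.

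Fat and muscle, which are rich in PGC-1α, can be dissected along with a kidney. The summed level of 8 adipocyte markers was 232 to 606 CPM in set C controls and 242 to 262 CPM in set C DKO libraries, and nearly all of it was Fabp4 (107 to 589 CPM over all libraries), which endothelium also makes. The defining genes of brown fat Ucp1 and Cidea had at most 7 and 8 counts and were at 0 in 21 and 19 of 35 libraries, and Elovl3 was at 0 in 31 and had up to 24 counts in the others. With the adipocyte markers as a covariate Ppargc1a in Flcn/Tfe3 DKO was at 0.49, against 0.63 without it, and called (adjusted p = 0.0020, edgeR). It was 0.29 against 0.35 in Flcn KO and 0.15 against -0.10 in Flcn/Tfeb DKO, neither called. Since nearly all of the sum was Fabp4, this covariate need not measure fat. The part of fat in the Ppargc1a values was not tested. The summed level of 6 muscle markers was 18.8 to 419 CPM in Flcn/Tfeb DKO and 7.78 to 60.9 CPM in their controls, 7.02 to 201 CPM and 3.93 to 13.9 CPM in DKO and control libraries of set C, 13.01 to 239.9 CPM and 11.2 to 152 CPM in set B, and 4.40 to 58.2 CPM and 8.93 to 196 CPM in Flcn KO and its controls. Of the muscle markers 4 of 4 tested were above 0 in Flcn/Tfeb DKO (median 3.13), 3 of them at an unadjusted p under 0.05, among them Myh8 (4.41, SE 1.26) and Mylpf (3.61, SE 1.04), and none was called (adjusted p = 0.80 for both, edgeR). In Flcn/Tfe3 DKO 3 of 3 were above 0 (median 1.13), none called, and in Flcn KO the 1 tested was at -0.66, and the part of muscle in the Ppargc1a values was not tested. The summed level of 6 red blood cell markers was 1398 to 1842 CPM in set C DKO libraries and 2077 to 7586 CPM in set C controls, without overlap, with none of 5 tested markers called and all 5 lower at an unadjusted p under 0.05 in the Flcn/Tfe3 cross, and its part in the set C values was not tested.

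Last, the genes that followed each member from library to library within groups and sets were sought, by Pearson's r of log2 CPM over 35 libraries and 12274 genes, as a description without a test, since depth and library quality are shared by all genes of a library. Ppargc1a was most like Upf1 (0.83), Hip1 (0.82) and Akap12 (0.82), and Ppargc1b most like Auts2 (0.78), Mkl2 (0.75) and Cuedc1 (0.74). Tfam was most like Sgk3 (0.72), Gabpa most like Apln (0.72), Esrra most like Plekhf2 (0.66), Pprc1 most like Svep1 (0.66) and Nrf1 most like Rasd2 (0.62). No member was among the first 3 of another member. Over the 21 pairs of members r was -0.38 (Ppargc1a and Tfam) to 0.45 (Ppargc1a and Gabpa), with a median of -0.02.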

How the data were processed

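Whole kidneys were measured in 35 libraries (33.7% to 49.4% of reads were aligned to more than 1 place in the 26 with a tally). Per the paper's methods and the submitters' notes, the authors trimmed reads with bbduk (the notes name Trim Galore), used STAR for alignment to mm10 and HTSeq-count for the gene counts, which were deposited as whole-number counts without normalization. Multiply aligned reads and reads on no gene stayed out. 1 column was not used.

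Each cross was fitted in edgeR 4.0.16 (R 4.3.3) with filterByExpr, TMM factors and the two-sided quasi-likelihood test, the set being a term in the Flcn/Tfe3 cross, and differences of effects as interactions. Benjamini-Hochberg adjustment covered all genes of a fit, and calls were made below an adjusted p of 0.05. The SE is the log2 fold change over the square root of the F statistic. CPM used TMM factors over all libraries, and log2 CPM a prior count of 2. Likeness was taken over genes with a mean of at least 10 counts. Libraries are labelled as biological replicates, and no pair of a group was a single library deposited again (chi-square per degree of freedom 2.85 to 42.6 over 63 pairs). The fits were tested on simulated data.

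The members and lists were chosen with earlier results of these data known. Genes named are the members, Flcn, Tfeb, Tfe3 and Cdh16, from each of 3 pathway lists the genes called and the 2 with the smallest p in each cross, markers of the cell types given, and the genes most like a member. A gene that this rule names is not reported here. Other settings tried were the likelihood ratio test, DESeq2 1.42.0, RLE factors, other filters, a threshold of 0.1, covariates, a replicate block, other sets of libraries and each library left out. The share of reads on no gene, the set interaction, the sets with the mitochondrial share and the fit without 2 Flcn controls were added after seeing the data. Figures were drawn with matplotlib 3.10.9.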

Additional observations from a re-analysis of the deposited data

Results flagged for a closer look

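Pprc1 in Flcn/Tfe3 DKO replicate 5 of set B, at 5.35 CPM, lay far from the other 5 DKO libraries of the set, which were at 7.52 to 8.02 CPM. It was the 1 flagged of 42 groups of 4 to 6 libraries tested over the 7 members. The rule can flag a group by chance, at a rate not measured here. No tested difference between crosses or sets passed an adjusted p of 0.05 for a member.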

How the results depend on the processing

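Of 865 values of single genes under other settings, 802 kept their direction and their side of the threshold, 32 changed sign, 24 were no longer called and 7 became called. The call of 1 member in Flcn/Tfe3 DKO became 0 with the replicate block, with Xist or the mitochondrial share as a covariate, in set B alone (also with the mitochondrial share) and in set C alone with the mitochondrial share or the share of reads on no gene, and was 0 to 1 when single libraries were left out. The cause was not tested, except that the single sets and the left-out libraries have fewer samples.

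The sign of some values near 0 changed. In Flcn/Tfeb DKO Ppargc1a was at 0.15, 0.21 and 0.12 with the adipocyte markers, the mitochondrial share and the share of reads on no gene as covariates (-0.20 to 0.12 with single libraries left out), Gabpa was at 0.0078 in DESeq2, at 0.45, 0.72 and 0.53 with these covariates and at 0.21 with the block (-0.24 to 0.53), Nrf1 was at -0.0016 to 0.27 with single libraries left out, and Pprc1 was at -0.0099 with the adipocyte markers. In Flcn KO Ppargc1b was at -0.032 with the share of reads on no gene and at -0.0045 without both low-share controls (-0.054 to 0.19). In Flcn/Tfe3 DKO Esrra was at -0.064 in set C, Nrf1 at 0.22 with the block (-0.13 to 0.0062), Pprc1 at 0.055 with Xist, 0.02 with the mitochondrial share, and in set C 0.57, 1.01 with the mitochondrial share and 1.09 with the share of reads on no gene (-0.27 to 0.11), and Tfam at 0.061 with Xist, 0.021 with the adipocyte markers, 0.088 with the block, and 0.11 and 0.095 in set B without and with the mitochondrial share (-0.14 to 0.0064).

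Genes called in Flcn KO (62) were 132 with the likelihood ratio test, 113 in DESeq2, 95 without a filter, 41 with the adipocyte markers, 100 at a threshold of 0.1, 147 with the mitochondrial share and 155 with the share of reads on no gene (37 to 58 with single libraries left out). In Flcn/Tfeb DKO (0) they were 3 in 1 fit of all 35 libraries and 1 with the adipocyte markers (0 to 1). In Flcn/Tfe3 DKO (48) they were 88 with the likelihood ratio test, 96 in DESeq2, 26 with Xist, 28 with the mitochondrial share, 8 in set B and 569 in set C, 10 and 8 there with the mitochondrial share, and 5 in set C with the share of reads on no gene (30 to 53). For the Flcn/Tfeb DKO effect less the Flcn KO effect (2) they were 7 with the likelihood ratio test, 8 in DESeq2, 5 in 1 fit and 5 with the mitochondrial share (0 to 3). For the Flcn/Tfe3 DKO effect less the Flcn KO effect (0) they were 2 and 1 with the likelihood ratio test and DESeq2, and less the Flcn/Tfeb DKO effect (3) they were 7 and 13, and 0 with the mitochondrial share (1 to 82, the highest without Flcn/Tfeb control replicate 2). The set difference (162) had 0 with the mitochondrial share.

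With the replicate number as a block neither Ppargc1a (0.60, adjusted p = 1) nor Esrrg (0.66, adjusted p = 1, edgeR) was called in Flcn/Tfe3 DKO. Cycs in Flcn KO was at 0.65 with the block and was not called either (adjusted p = 0.059, edgeR). With the block 2 genes were called in Flcn/Tfe3 DKO, and 0 in the Flcn/Tfeb less Flcn and Flcn/Tfe3 less Flcn/Tfeb differences. Same-numbered control and Flcn KO or DKO libraries correlated at -0.39 to 0.33, and differently numbered ones at -0.30 to 0.38. The numbers thus gave no sign of a pairing, though these ranges do not exclude one.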
